A study of Arabidopsis thaliana with 8 samples.

Results

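The transcripts described here come from 33 nuclear genes of Arabidopsis thaliana that encode subunits of the photosynthetic electron transport chain, taken by a fixed list of loci from the 27628 loci measured. The list covers 12 photosystem I genes, 11 photosystem II genes and 10 genes for the cytochrome b6f complex, plastocyanin, ferredoxin, ferredoxin-NADP reductase and ATP synthase. All 33 loci were in the tables with between 420 and 80036 reads per library, so a filter on low counts removed none of them. RNA was sequenced from whole seedlings of ecotype Col-0 held for 4.5 days in blue light on sucrose medium after 3 days of cold and 12 h of white light. The 4 genotypes were wild type (WT), the agb1-2 mutant of the G protein beta subunit AGB1, a mutant of the light-signalling transcription factor HY5, and the cry1 cry2 double mutant of the cryptochromes, which are blue-light receptors. Each genotype had 2 biological replicates. The labels name no allele for hy5, cry1 or cry2, and all groups were grown in the same light. The comparisons show which transcript levels differ between these genotypes in blue light, and whether a gene depends directly on a regulator was not tested.

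In the thylakoid membrane, photosystem II takes electrons from water and passes them through plastoquinone to the cytochrome b6f complex, from which plastocyanin carries them to photosystem I. Photosystem I reduces ferredoxin, ferredoxin-NADP reductase makes NADPH, and ATP synthase uses the proton gradient that the chain builds up. The reaction-centre proteins of both photosystems are encoded in the plastid, while most of the peripheral, lumenal and mobile components are nuclear genes whose proteins are imported. Light, acting through photoreceptors and HY5 among others, is known to raise the transcripts of many of these nuclear genes as a seedling greens.

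The libraries held 15651218 to 23098347 counted reads, and 3 reads correspond to 0.13 to 0.192 CPM, counts scaled to the library size. Replicates correlated across loci with r of 0.9927 to 0.9941 on the log2 CPM scale, and loci are not independent replicates. The reads of CRY2 fell to 0.197 ± 0.0429 CPM in cry1 cry2 from 221 ± 4.35 CPM in WT (mean ± SD, n = 2), those of CRY1 were 80.2 ± 3.11 against 200.1 ± 3.48, and those of AGB1 were 43.8 ± 0.811 in agb1 against 69.7 ± 7.69. HY5 transcript, at 15.4 ± 0.664 CPM in WT, stood at 14.5 ± 0.697 in hy5, so its level does not check that label. Plastid loci took 1.68% to 3.00% of the reads in a library. Levels below are CPM scaled by the TMM factors of edgeR, given for replicate 1 and then replicate 2, and a call means an adjusted p (Benjamini-Hochberg, 20695 loci) under 0.05 in the quasi-likelihood test of edgeR.

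Together the 33 genes formed a graded series over the genotypes. Their summed level was 28530 and 27640 CPM in WT, 35410 and 34310 in agb1, 18790 and 18800 in hy5, and 6110 and 5878 in cry1 cry2. The agb1 libraries were thus the highest and the cry1 cry2 libraries the lowest, with no overlap between genotypes. In agb1, 30 genes rose and 0 fell, against 8.76% and 8.41% of all tested loci, with a median log2 fold change of 0.31 beside -0.0027 over all tested loci. At an unadjusted p under 0.05, 31 genes were higher and 0 lower in agb1, and DESeq2 called 29 higher and 0 lower. In hy5, 23 genes fell and 4 rose, against 20.2% and 22.6% of all tested loci, with a median of -0.60 beside -0.0011. In cry1 cry2, 33 genes fell and 0 rose, against 25.8% and 25.6% of all tested loci, with a median of -2.21 beside 0.0010, and 30 of them fell at least 2-fold. Neither DESeq2 nor an unadjusted p under 0.05 gave any higher gene in cry1 cry2 (0 in both cases). The 3 comparisons share the WT libraries. In bulk seedlings, fewer green cells and less transcript per green cell cannot be told apart.

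**Figure D1:**
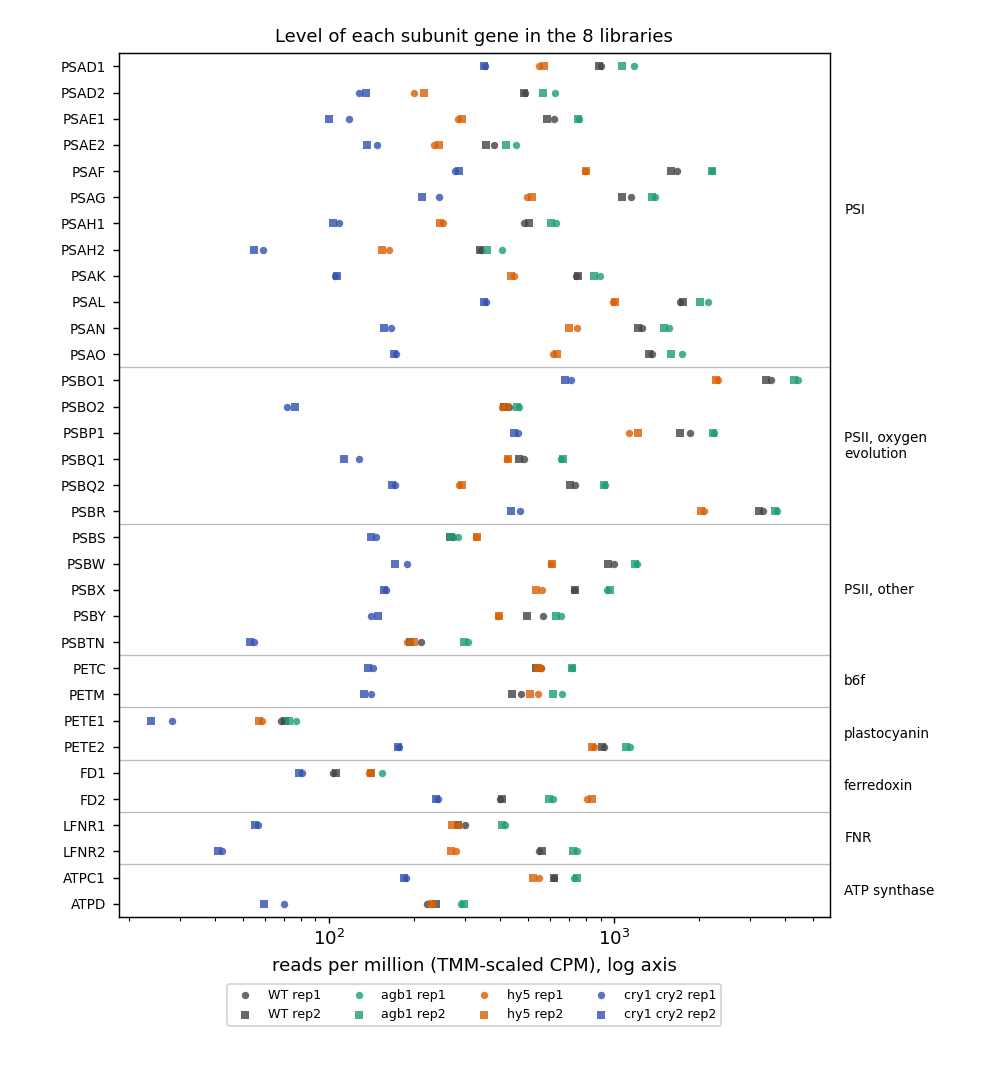
Level of each of the 33 subunit genes in the 8 libraries, in TMM-scaled CPM on a log axis, with genes ordered by role and circles and squares for replicates 1 and 2. The cry1 cry2 points lie below those of all other genotypes in every row. The full order agb1, WT, hy5, cry1 cry2 without overlap is shown by 24 of the 33 genes, a count not made over all tested loci.

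That full order held, with no overlap between neighbouring genotypes, in 24 of the 33 genes. The share of all tested loci with this order was not counted, so the number is a description only. The 9 exceptions were PSBO2, PSBS, PSBTN, PETC, PETM, FD1, FD2, LFNR1 and ATPD, and in each of them the level in hy5 overlapped with or exceeded that in WT. By calls, 22 genes were higher in agb1 and lower in both hy5 and cry1 cry2. Another 5 were higher in agb1 and lower in cry1 cry2 with no call in hy5, and FD1, FD2 and PETM were higher in both agb1 and hy5 and lower in cry1 cry2. The remaining PSBS, PETE1 and PSBO2 had no call in agb1. How many of all tested loci show each of these joint patterns was not counted, and the comparisons share the WT libraries.

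Genes that mark other tissues also differed between the genotypes, and their part in the results was not tested. The summed level of 15 root-enriched genes was 4659 and 4648 CPM in WT, 3216 and 3188 in agb1, 7188 and 7369 in hy5, and 7768 and 7592 in cry1 cry2, which is the reverse order of the genotypes for the subunit genes. Of 14 root-enriched genes tested, 1 rose and 7 fell in agb1, 7 rose and 7 fell in hy5, and 7 rose and 0 fell in cry1 cry2, so the sum and the single genes did not all move alike. PYK10, a root beta-glucosidase, made up most of the sum, with 4156 ± 18.2 CPM in WT. The 12 seed and embryo genes summed to 13.95 and 15.7 CPM in WT, 10.27 and 10.51 in agb1, 15.37 and 18.49 in hy5, and 75.5 and 102 in cry1 cry2. Of these 12 genes, 1 rose and 3 fell in agb1, 3 rose and 1 fell in hy5, and 12 rose and 0 fell in cry1 cry2. Over all tested loci, 8.76% rose and 8.41% fell in agb1, 22.6% and 20.2% in hy5, and 25.6% and 25.8% in cry1 cry2. Several seed genes lay near the level of 3 reads, with CRB, SESA1, SESA2, SESA3, SESA4, OLEO1 and EM1 at 0.0479 to 0.399 CPM in WT. No root-enriched or seed gene of these lists was without reads in all libraries.

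Photosystem I genes moved in 1 direction in each mutant. All 12 rose in agb1, by 0.17 to 0.45 on the log2 scale, all 12 fell in hy5, with log2 fold changes of -0.62 to -1.23, and all 12 fell in cry1 cry2, with -1.35 to -2.98. Of all tested loci, 8.76% rose in agb1, 20.2% fell in hy5 and 25.8% fell in cry1 cry2. The agb1 calls of PSAE2 and PSAH2 were lost under some alternatives, given below. Per length, the deposited RPKM values of WT placed PSAO highest among them at 3143 ± 21.4 RPKM and PSAH2 lowest at 765 ± 5.48 (mean ± SD, n = 2).

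The stromal subunits PSAD and PSAE, which form the docking surface for ferredoxin, are each encoded by a pair of genes. PSAD1 (AT4G02770) had 904 and 889 CPM in WT, 1175 and 1072 in agb1, 548 and 569 in hy5 and 355 and 349.8 in cry1 cry2. PSAD2 (AT1G03130) had 489.6 and 485 CPM in WT, 624 and 565 in agb1, 199 and 216 in hy5 and 128 and 136 in cry1 cry2. In hy5 PSAD2 kept 42.6% ± 2.52 and PSAD1 62.3% ± 1.62 of the WT mean (SD, n = 2).

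For the second stromal subunit the levels crossed between copies. PSAE1 (AT4G28750) had 618 and 583 CPM in WT, 759 and 752 in agb1, 284 and 294 in hy5 and 118 and 100.2 in cry1 cry2, and PSAE2 (AT2G20260) had 379 and 356 CPM in WT, 454 and 421 in agb1, 235 and 244 in hy5 and 148 and 136 in cry1 cry2. Per length, the first copy was the higher of the pair in WT (1370 ± 35.4 against 825 ± 24.6 RPKM) and the second was in cry1 cry2 (282.5 ± 30.7 against 361 ± 18.2 RPKM). PSAE1 fell there by 2.46 ± 0.06 and PSAE2 by 1.37 ± 0.06 on the log2 scale (± SE). The agb1 call of PSAE2 (0.25 ± 0.06) had adjusted p = 0.056 when WT replicate 2 was left out (0.21) and 0.0597 when agb1 replicate 1 was (0.19), and so was lost in both cases.

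PSAF and PSAN lie on the lumenal side, where plastocyanin delivers its electron. PSAF (AT1G31330) stood at 1668 and 1591 CPM in WT, 2219 and 2221 in agb1, 791 and 802 in hy5 and 277 and 288 in cry1 cry2. Its rise in agb1, 0.45 ± 0.05 (adjusted p = 5.08e-08), was the largest within photosystem I. PSAN (AT5G64040) stood at 1259 and 1223 CPM in WT, 1562 and 1502 in agb1, 743 and 695 in hy5 and 166 and 156 in cry1 cry2, and it kept 12.99% ± 0.587 of the WT mean in cry1 cry2.

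PSAG and PSAK are membrane subunits at the edge of the complex. PSAG (AT1G55670) was measured at 1153 and 1073 CPM in WT, 1395 and 1359 in agb1, 498 and 516 in hy5 and 244 and 214 in cry1 cry2. PSAK (AT1G30380) was measured at 737 and 751 CPM in WT, 895 and 852 in agb1, 447 and 437 in hy5 and 106 and 107 in cry1 cry2. Both fell in hy5 and in cry1 cry2, PSAG to 45.6% ± 1.16 and PSAK to 59.4% ± 0.922 of WT in hy5, and PSAG to 20.5% ± 1.93 and PSAK to 14.3% ± 0.124 in cry1 cry2.

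PSAH, PSAL and PSAO sit on the side where light-harvesting complex II docks during state transitions, the shift of antenna between the photosystems. PSAH1 (AT3G16140) gave 485 and 504 CPM in WT, 630 and 601 in agb1, 252 and 246 in hy5 and 109 and 104 in cry1 cry2. PSAH2 (AT1G52230) gave 343 and 339 CPM in WT, 405 and 359 in agb1, 164 and 154 in hy5 and 58.9 and 54.8 in cry1 cry2, with no overlap between agb1 and WT. The agb1 call of PSAH2 (0.17 ± 0.06, adjusted p = 0.046) did not hold when scaled by library sizes alone (adjusted p = 0.243), with DESeq2 (0.0596) or with the most-read transcript model (0.0592). It was also lost without WT replicate 1 (0.145), WT replicate 2 (0.194) or agb1 replicate 1 (log2 fold change 0.08, adjusted p = 0.574). PSAL (AT4G12800) gave 1711 and 1748 CPM in WT, 2139 and 2011 in agb1, 992 and 1009 in hy5 and 356 and 350.3 in cry1 cry2. PSAO (AT1G08380) gave 1369 and 1327 CPM in WT, 1741 and 1585 in agb1, 614 and 632 in hy5 and 172 and 169 in cry1 cry2, and at -2.98 ± 0.06 in cry1 cry2 it fell more than any other photosystem I gene.

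Among photosystem II genes, those for the oxygen-evolving side mostly followed the same order, while PSBO2 (AT3G50820) had no call in hy5 and PSBQ1 a small fall. PSBO stabilises the manganese cluster that splits water. PSBO1 (AT5G66570) reached 3577 and 3426 CPM in WT, 4422 and 4281 in agb1, 2333 and 2294 in hy5 and 709 and 674 in cry1 cry2, and PSBO2 reached 430.3 and 413 CPM in WT, 466 and 458 in agb1, 405 and 421 in hy5 and 71.8 and 76.5 in cry1 cry2. In hy5 PSBO1 fell by 0.60 ± 0.05 (adjusted p = 2.31e-11), whereas PSBO2 overlapped with WT (log2 fold change -0.03, 95% interval -0.14 to 0.08, adjusted p = 0.688). In cry1 cry2 both fell, by 2.34 ± 0.05 and 2.51 ± 0.06. In agb1 PSBO2 had no call (0.13 ± 0.05, adjusted p = 0.0889).

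PSBP and PSBQ are further extrinsic proteins at the lumenal face. PSBP1 (AT1G06680) was at 1847 and 1714 CPM in WT, 2244 and 2237 in agb1, 1134 and 1223 in hy5 and 460.4 and 449 in cry1 cry2. The PSBQ pair diverged in hy5 more than any other pair. PSBQ1 (AT4G21280) was at 485 and 464 CPM in WT, 657 and 664 in agb1, 423 and 427 in hy5 and 128 and 114 in cry1 cry2, and PSBQ2 (AT4G05180) was at 729.8 and 705 CPM in WT, 936 and 923 in agb1, 287 and 294 in hy5 and 171 and 167 in cry1 cry2. Per length, PSBQ1 was the lower copy in WT (692.5 ± 11.1 against 1018 ± 9.56 RPKM) and PSBQ2 the lower in hy5 (622 ± 5.46 for PSBQ1 against 413 ± 6.98 RPKM). PSBQ2 fell by 1.31 ± 0.05 in hy5 (adjusted p = 2.98e-18), the largest fall of the 33 genes there, and PSBQ1 by 0.16 ± 0.05 (adjusted p = 0.0191). The small change of PSBQ1 was not called without WT replicate 1 (-0.13, adjusted p = 0.147), hy5 replicate 1 (-0.15, 0.0756) or hy5 replicate 2 (-0.17, 0.0539). In agb1 both rose, by 0.48 ± 0.05 and 0.37 ± 0.05.

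The 250 bases before the annotated gene start are shown for this pair because its copies differed most in hy5. Both windows hold the G-box, CACGTG, the hexamer that HY5 and other bZIP and bHLH factors can bind. Capitals mark the G-boxes. The sequences are from RefSeq, build TAIR10.1, written 5′ to 3′ on the strand of the gene, PSBQ1 from the plus strand of chr4:11334102-11334351 and PSBQ2 from the minus strand of chr4:2673244-2673493.
PSBQ1: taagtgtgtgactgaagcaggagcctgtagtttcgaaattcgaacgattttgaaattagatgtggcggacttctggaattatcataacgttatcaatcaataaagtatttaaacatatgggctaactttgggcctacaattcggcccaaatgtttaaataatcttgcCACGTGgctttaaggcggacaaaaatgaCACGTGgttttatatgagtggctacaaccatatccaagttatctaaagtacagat
PSBQ2: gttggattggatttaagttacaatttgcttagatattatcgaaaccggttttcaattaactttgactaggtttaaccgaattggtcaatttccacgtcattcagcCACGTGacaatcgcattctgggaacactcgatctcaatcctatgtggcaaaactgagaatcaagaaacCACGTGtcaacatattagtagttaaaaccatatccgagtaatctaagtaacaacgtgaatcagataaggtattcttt
In PSBQ1 the G-boxes begin 83 and 55 bases before the start, and in PSBQ2 they begin 145 and 77 bases before it. The windows thus match in the number of G-boxes and differ in their distance from the start. They also differ elsewhere, with the hexamer GATAAG in PSBQ2 alone and GGGCC in PSBQ1 alone. The part of any of these differences in the transcript levels was not tested.

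PSBR (AT1G79040), a subunit needed for stable binding of PSBP, was the most abundant transcript of the set per length in WT, at 7649 ± 87.6 RPKM. Its CPM values were 3351 and 3227 CPM in WT, 3753 and 3680 in agb1, 2069 and 2033 in hy5 and 471 and 438 in cry1 cry2. It fell by 2.85 ± 0.05 in cry1 cry2, more than any other photosystem II gene. In agb1 it stood at 0.18 ± 0.05 (adjusted p = 0.0106), a call that did not hold when scaled by library sizes alone (0.11, 0.0713) or when WT replicate 2 (0.15, 0.108) or agb1 replicate 1 (0.16, 0.107) was left out.

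The other photosystem II genes were less uniform. PSBS (AT1G44575), the protein that triggers the dissipation of excess light as heat, departed from the rest, with 274 and 266 CPM in WT, 286 and 268 in agb1, 329 and 331 in hy5 and 147 and 140.5 in cry1 cry2. It rose in hy5 by 0.29 ± 0.05 (adjusted p = 5.75e-05), overlapped with WT in agb1 (0.04, 95% interval -0.07 to 0.15, adjusted p = 0.725) and kept 53.3% ± 1.78 of the WT mean in cry1 cry2. The small membrane subunits PSBW (AT2G30570) and PSBX followed the general order. PSBW, which links the antenna to the core, had 1005 and 959.6 CPM in WT, 1208 and 1190 in agb1, 604 and 609 in hy5 and 188 and 171 in cry1 cry2. PSBX (AT2G06520) had 728 and 735 CPM in WT, 948 and 972 in agb1, 560 and 532 in hy5 and 158 and 156 in cry1 cry2.

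PSBY (AT1G67740), another small membrane subunit, stood at 568 and 495 CPM in WT, 652 and 627 in agb1, 394 and 396 in hy5 and 141 and 149 in cry1 cry2, and its agb1 call (0.27 ± 0.06) did not hold when WT replicate 2 was left out (0.17, adjusted p = 0.0848). PSBTN (AT3G21055), a small lumenal subunit, stood at 211 and 193 CPM in WT, 309.5 and 299 in agb1, 189 and 199 in hy5 and 54.6 and 53.0 in cry1 cry2. It had the largest rise of the 33 genes in agb1, 0.59 ± 0.06 (adjusted p = 2.43e-09), and its hy5 and WT libraries overlapped (-0.06, 95% interval -0.17 to 0.06).

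**Figure D2:**
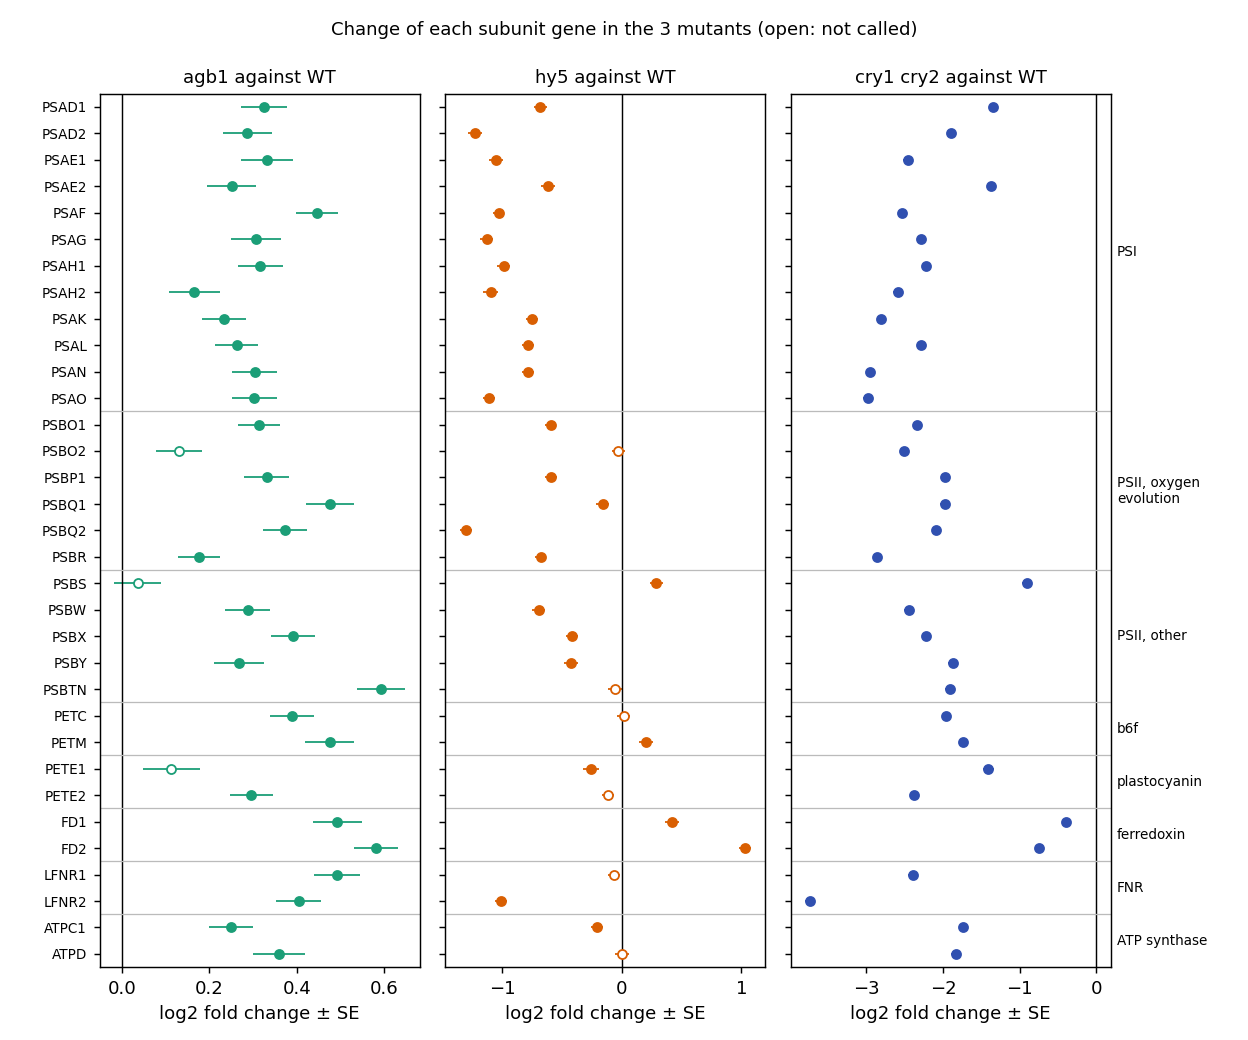
Log2 fold change ± SE of the 33 subunit genes in agb1, hy5 and cry1 cry2 against WT, by role, with filled points for called genes and open points for the others; the horizontal axes differ between the panels. Photosystem I genes lie between -0.62 and -1.23 in hy5, whereas ferredoxin and PSBS lie above 0 there.

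In hy5 neither gene of the cytochrome b6f complex fell, and of the plastocyanin genes 1 did. The cytochrome b6f complex passes electrons to plastocyanin, and 2 of its nuclear genes were in the set. PETC (AT4G03280), the Rieske iron-sulfur protein, had 556 and 533 CPM in WT, 715 and 712 in agb1, 556 and 544 in hy5 and 143 and 138 in cry1 cry2. Its hy5 and WT libraries overlapped (log2 fold change 0.01, 95% interval -0.09 to 0.12, adjusted p = 0.856). PETM (AT2G26500), a small subunit, had 474 and 440.3 CPM in WT, 658 and 612 in agb1, 541 and 510.2 in hy5 and 141 and 134 in cry1 cry2 and was higher in hy5 by 0.20 ± 0.06 (adjusted p = 0.00404), a call that did not hold when WT replicate 2 (0.15, adjusted p = 0.0913) or hy5 replicate 1 (0.16, 0.0588) was left out.

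Plastocyanin, the copper protein of the lumen, is encoded by PETE1 and PETE2. PETE1, the lowest transcript of the set per length in WT at 121 ± 4.2 RPKM, had 68.2 and 70.2 CPM in WT, 77.0 and 72.5 in agb1, 58.2 and 57.2 in hy5 and 28.3 and 23.8 in cry1 cry2. PETE2, at 1793 ± 7.11 RPKM in WT, had 925 and 910.1 CPM in WT, 1144 and 1109 in agb1, 854 and 840.5 in hy5 and 177 and 175 in cry1 cry2. In hy5 PETE1 (AT1G76100) fell by 0.26 ± 0.07 (adjusted p = 0.00172), and PETE2 (AT1G20340) stood at -0.12 ± 0.05 with no call (adjusted p = 0.0589). DESeq2 (adjusted p = 0.0367), a filter of at least 5 CPM in 2 libraries (0.0374) and leaving out organelle loci (0.0463) did call PETE2 lower. PETE1 had no call in agb1 (0.11, 95% interval -0.02 to 0.25, adjusted p = 0.269).

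Both ferredoxin transcripts were higher in hy5 than in WT. FD1 (AT1G10960) had 104 and 106 CPM in WT, 154 and 141 in agb1, 139 and 141 in hy5 and 80.9 and 78.9 in cry1 cry2. FD2 (AT1G60950), the major leaf ferredoxin, had 399 and 408 CPM in WT, 612 and 595 in agb1, 806 and 838 in hy5 and 242 and 238 in cry1 cry2, so that hy5 was its highest genotype. FD2 rose by 1.03 ± 0.05 in hy5 (adjusted p = 5.20e-16), to 204% ± 5.63 of the WT mean, and FD1 by 0.42 ± 0.06 (adjusted p = 5.15e-07). Both also rose in agb1, FD2 by 0.58 ± 0.05 and FD1 by 0.49 ± 0.06. In cry1 cry2 they kept more of the WT level than any other gene of the set, 76.3% ± 1.32 for FD1 and 59.5% ± 0.631 for FD2. By RPKM, FD2 ranked 19 of 33 in WT and 3 of 33 in hy5.

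Ferredoxin-NADP reductase of leaves is encoded by LFNR1 and LFNR2, and LFNR2 (AT1G20020) had the largest fall of all 33 genes in cry1 cry2. LFNR1 (AT5G66190) had 300.3 and 285 CPM in WT, 416 and 407 in agb1, 288 and 271 in hy5 and 56.4 and 55.1 in cry1 cry2. LFNR2 had 546 and 563 CPM in WT, 744 and 723 in agb1, 280.3 and 269.7 in hy5 and 42.4 and 40.9 in cry1 cry2. LFNR2 kept 7.51% ± 0.198 of its WT mean in cry1 cry2 (log2 fold change -3.73 ± 0.06, adjusted p = 2.45e-28) and 49.6% ± 1.35 in hy5. LFNR1 kept 19.1% ± 0.321 in cry1 cry2, and its hy5 libraries overlapped with WT (-0.07, 95% interval -0.18 to 0.04, adjusted p = 0.326).

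ATPC1 and ATPD encode the gamma and delta subunits of chloroplast ATP synthase. ATPC1 (AT4G04640) had 616 and 620.2 CPM in WT, 724 and 745 in agb1, 546 and 523 in hy5 and 188 and 184 in cry1 cry2, a fall of 0.21 ± 0.05 in hy5 (adjusted p = 0.00121). ATPD (AT4G09650) had 221 and 238 CPM in WT, 291 and 298 in agb1, 229 and 229.8 in hy5 and 69.8 and 59.4 in cry1 cry2, with hy5 and WT overlapping (0.00, 95% interval -0.12 to 0.12, adjusted p = 0.994). In cry1 cry2 ATPC1 fell by 1.73 ± 0.05 and ATPD by 1.83 ± 0.06.

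Summed by role, the levels in hy5 differed along the chain, given here as a description. Photosystem I genes stood at 52.7% of the WT sum in hy5, the oxygen-evolving genes at 65.5%, the other photosystem II genes at 76.2%, plastocyanin at 91.7%, cytochrome b6f at 107%, ferredoxin at 189%, ferredoxin-NADP reductase at 65.45% and ATP synthase at 90.1%. In cry1 cry2 the same sums were 20.01%, 19.3%, 25.03%, 20.5%, 27.7%, 63.0%, 11.5% and 29.6%. In agb1 they lay between 121% for ATP synthase and 148% for ferredoxin. The differences between roles were not tested.

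Of the 33 genes, 16 form 8 pairs of close copies, and the share of each copy is given here by library. Their coding sequences are 75.0% to 88.0% identical, with no shared run longer than 35 bases (PSAD1 and PSAD2), and the encoded proteins 76.0% to 95.1% identical. Read length is not known here, so whether reads were split between copies was not tested. Shares are shares of reads, not corrected for coding length. With 2 libraries against 2, an exact two-sided permutation test cannot go below p = 0.333, and the shares are given without a test.

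PSBQ1 made up 39.9% and 39.7% of the reads of its pair in WT, 41.2% and 41.8% in agb1, 59.6% and 59.3% in hy5, and 42.8% and 40.5% in cry1 cry2. The share thus stood apart in hy5, the genotype where PSBQ1 had more reads than PSBQ2. LFNR1 made up 35.5% and 33.6% of its pair in WT, 35.9% and 36.0% in agb1, 50.6% and 50.2% in hy5, and 57.1% and 57.4% in cry1 cry2. Here both mutants with lower totals had a larger LFNR1 share.

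The PSAD1 share was also larger in both, from 64.9% and 64.7% in WT to 73.4% and 72.5% in hy5 and 73.6% and 72.1% in cry1 cry2. PSAE1 went the other way, from 62.0% and 62.1% in WT to 54.8% and 54.6% in hy5 and 44.4% and 42.4% in cry1 cry2. PETE1 made up 6.87% and 7.16% of plastocyanin reads in WT and 13.8% and 12.0% in cry1 cry2, and stood at 6.39% and 6.38% in hy5. The FD1 share was lower in hy5 and higher in cry1 cry2, from 20.6% in both WT libraries to 14.7% and 14.4% in hy5 and 25.1% and 24.9% in cry1 cry2. PSBO1 went from 89.3% and 89.2% in WT to 85.2% and 84.5% in hy5, and stood at 90.8% and 89.8% in cry1 cry2. PSAH1 moved from 58.6% and 59.8% in WT to 64.9% and 65.5% in cry1 cry2, and stood at 60.6% and 61.4% in hy5. In agb1 the shares were 65.3% and 65.5% for PSAD1, 62.6% and 64.1% for PSAE1, and 6.31% and 6.14% for PETE1. In the same libraries FD1 stood at 20.1% and 19.1%, PSBO1 at 90.5% and 90.3%, and PSAH1 at 60.9% and 62.6%.

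**Figure D3:**
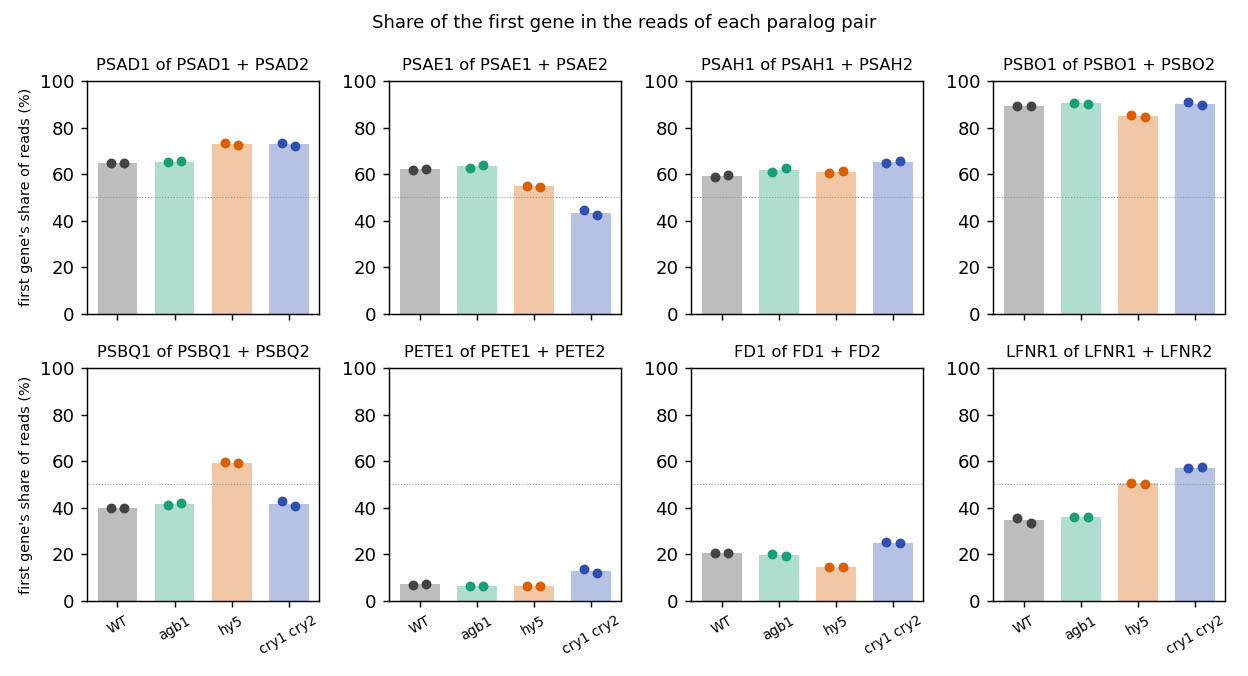
Share of the first gene in the reads of each of the 8 paralog pairs, in percent, with bars for the mean of 2 libraries and points for the libraries; the dotted line marks equal shares. PSBQ1 stands near 59% in hy5 and near 40% in WT, and LFNR1 passes 50% in hy5 and cry1 cry2.

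The mutants were also compared with each other in the same fit. In agb1 against hy5, 30 genes were higher in agb1 and 2 lower, against 24.2% and 25.7% of all tested loci. PSBQ2 differed most (log2 fold change 1.68 ± 0.05, adjusted p = 3.54e-21), followed by PSAD2 (1.52 ± 0.06) and PSAF (1.48 ± 0.05). The genes lower in agb1 than in hy5 were FD2 (-0.45 ± 0.05, adjusted p = 1.42e-08) and PSBS (-0.25 ± 0.05, adjusted p = 2.46e-04). FD1 had no call (0.07, 95% interval -0.04 to 0.19, adjusted p = 0.277). PSBO2 was higher in agb1 by 0.16 ± 0.05 (adjusted p = 0.0123), a call lost with library sizes alone (0.147), without agb1 replicate 1 (0.0745) and without hy5 replicate 1 (0.0871).

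In hy5 against cry1 cry2, all 33 genes were higher in hy5 and 0 lower, against 23.2% and 20.6% of all tested loci. The gap was smallest for the PSAD genes, 0.66 ± 0.06 for PSAD2 and 0.67 ± 0.05 for PSAD1. The gap was largest for LFNR2 (2.72 ± 0.06, adjusted p = 5.09e-25) and PSBO2 (2.48 ± 0.06). In agb1 against cry1 cry2 all 33 were higher in agb1 and 0 lower, against 28.8% and 29.1%, from 0.88 ± 0.06 for FD1 to 4.14 ± 0.06 for LFNR2. In both comparisons with cry1 cry2, DESeq2 and an unadjusted p under 0.05 likewise gave 33 higher and 0 lower.

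Other nuclear genes of the electron transport chain were also compared with WT. The fixed list of 47 holds assembly factors, subunits of the NDH complex (which returns electrons from photosystem I to plastoquinone), regulators and minor isoforms. In agb1, 26 of 47 rose and 2 fell, against 8.76% and 8.41% of all tested loci. The 3 largest changes were NDH subunits, PNSB3 at 0.75 ± 0.09, PNSL3 at 0.69 ± 0.11 and NDHO at 0.63 ± 0.07. In hy5, 13 rose and 17 fell, against 22.6% and 20.2% of all tested loci, with a median of -0.01. Among the 33 subunit genes 4 were higher and 23 lower there. The NDH and cyclic-flow group had 8 of 15 higher and 2 lower in hy5, led by NDHN (13.2 ± 1.86 CPM in WT, 31.7 ± 1.76 in hy5, log2 fold change 1.28 ± 0.10), NDHM (0.89 ± 0.08) and PNSL3 (0.78 ± 0.11). Assembly and repair factors had 2 of 14 higher and 7 lower in hy5, and thylakoid regulators 2 of 10 higher and 6 lower. The same shares of all tested loci apply to these subgroups, which were not tested.

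In cry1 cry2, 41 of the 47 fell and 3 rose, against 25.8% and 25.6% of all tested loci, with a median of -1.57. The largest falls were those of PNSL1 (36.7 ± 2.67 CPM in WT, 4.51 ± 0.678 in cry1 cry2, -3.02 ± 0.12), PGRL1A, a component of cyclic electron flow (-2.83 ± 0.07), and PNSL2 (-2.77 ± 0.10). The 3 that rose, named here after their values were seen, were FD3 (0.36 ± 0.06), RFNR1 (0.33 ± 0.08) and RFNR2 (0.31 ± 0.07), the ferredoxin and ferredoxin-NADP reductases of non-green tissue. In hy5, FD3 was also higher (0.19 ± 0.06, adjusted p = 0.0122), while RFNR1 (-0.24 ± 0.09, adjusted p = 0.0287) and RFNR2 (-0.29 ± 0.07, adjusted p = 8.71e-04) were lower. The root-enriched sum, mostly PYK10, was higher than in WT (4659 and 4648 CPM) in both cry1 cry2 (7768 and 7592) and hy5 (7188 and 7369). Of 14 root-enriched genes tested, 7 rose and 0 fell in cry1 cry2, and 7 rose and 7 fell in hy5. Any link between these isoforms and the root-enriched genes was not tested.

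The light-harvesting antenna genes, which feed the photosystems, and the carbon fixation and photorespiration enzymes of green tissue were set beside the subunit genes. In hy5, 17 of 20 antenna genes fell and 2 rose with a median of -1.53, and of 15 carbon fixation and photorespiration genes 12 rose and 0 fell with a median of 0.42. The subunit genes, at -0.60, lay between the medians of these lists. As shares of the WT sum in hy5 the levels were 32.1% for the antenna, 67.0% for the subunit genes and 130% for carbon fixation and photorespiration. In cry1 cry2, 19 of 20 antenna genes fell and 1 rose (median -2.65) and 15 of 15 carbon fixation genes fell (median -1.88), with sums at 14.9%, 21.4% and 25.1% of WT for the antenna, the subunit genes and carbon fixation. In agb1 the medians were 0.28 for the antenna, 0.31 for the subunit genes and 0.27 for carbon fixation, with 13 of 20, 30 of 33 and 13 of 15 genes higher and 0 lower in each list. Over all tested loci, 22.6% rose and 20.2% fell in hy5, 25.6% and 25.8% in cry1 cry2, and 8.76% and 8.41% in agb1. The lists were not tested against each other.

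**Figure D4:**
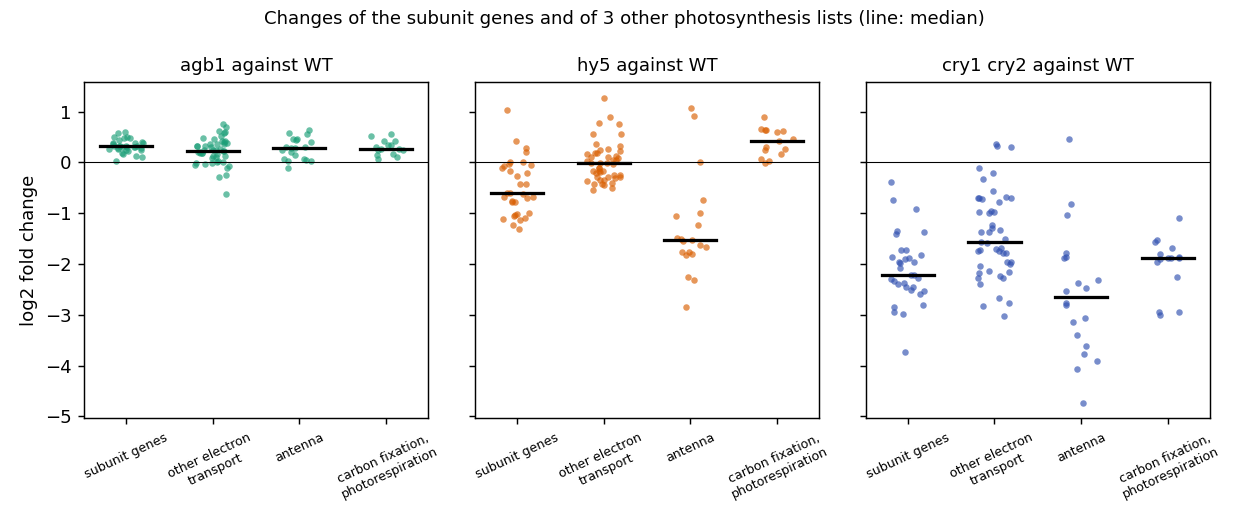
Log2 fold change of each gene in agb1, hy5 and cry1 cry2 against WT for the 33 subunit genes, 47 other electron transport genes, 20 antenna genes and 15 carbon fixation and photorespiration genes, with a line at each median. In hy5 the medians are -0.60, -0.01, -1.53 and 0.42, while in agb1 all 4 lie between 0.23 and 0.31.

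In the 250 bases before the gene start, searched on both strands, the G-box CACGTG was found in 6 of the 33 genes (18.2%) and in 6.5% of 27418 nuclear protein-coding genes. The 6 were PSAE2, PSAH2, PSBQ1, PSBQ2, PSBTN and ATPD. In hy5 their log2 fold changes ran from -1.31 for PSBQ2 and -1.10 for PSAH2 through -0.62 for PSAE2 and -0.16 for PSBQ1 to -0.06 for PSBTN and 0.00 for ATPD. They thus ran from the gene with the largest fall to genes with no call, and 4 of 6 were called lower beside 19 of the 27 genes without this hexamer. The windows of PSAH2, which fell, and ATPD, which had no call, are shown for this contrast, from the plus strand of chr1:19454548-19454797 and chr4:6100464-6100713 of TAIR10.1, with G-boxes in capitals.
PSAH2: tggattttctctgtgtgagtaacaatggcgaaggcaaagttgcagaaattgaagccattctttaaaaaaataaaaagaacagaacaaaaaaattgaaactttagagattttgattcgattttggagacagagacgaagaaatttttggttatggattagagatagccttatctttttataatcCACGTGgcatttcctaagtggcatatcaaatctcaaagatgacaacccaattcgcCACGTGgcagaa
ATPD: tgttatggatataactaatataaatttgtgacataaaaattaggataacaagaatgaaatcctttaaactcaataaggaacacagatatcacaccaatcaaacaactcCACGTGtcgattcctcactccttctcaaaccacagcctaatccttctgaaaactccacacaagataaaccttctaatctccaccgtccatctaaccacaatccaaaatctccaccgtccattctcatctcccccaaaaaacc
In PSAH2 the G-boxes begin 67 and 12 bases before the start, and in ATPD the single G-box begins 142 bases before it.

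Other short light-associated motifs were counted the same way. The I-box GATAAG was in 8 of 33 genes (24.2%) against 12.3% of all genes, SORLIP1 (GCCAC) in 12 (36.4%) against 15.4%, and SORLIP2 (GGGCC) in 10 (30.3%) against 16.2%. The ACGT core, which lies within every G-box, was in 17 (51.5%) against 44.1%. Genes called lower in hy5 were 10 of the 12 with SORLIP1 and 13 of the 21 without it. For the other motifs the split lay the other way, with 5 of 8 lower with the I-box and 18 of 25 without, 6 of 10 with SORLIP2 and 17 of 23 without, and 11 of 17 with the ACGT core and 12 of 16 without. The motif counts are descriptions and were not tested.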

How the data were processed

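RNA from 8 libraries was measured, 2 biological replicates for each of 4 genotypes per the labels. Each deposited table gives read counts and RPKM for 48321 transcript models. The counts are whole numbers that the authors deposited without normalization, and the RPKM values were scaled by the authors to coding length and library size, as the values show. In 1 library the header of the RPKM column repeats that of the reads, and its unit was taken from the values. The submitters' processing notes list Bowtie2 2.2.2 and TAIR10. For the counter, the read length and the strand setting the sources used here give nothing, so antisense reads may be included. Models of a locus with identical coding sequence split their reads about evenly, so counts were summed over models to 27628 loci, of which 24741 had a read.

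The test on summed counts was that of edgeR 4.0.16 under R 4.3.3 (TMM factors, quasi-likelihood F test, all 8 libraries in 1 fit with 4 residual degrees of freedom, Benjamini-Hochberg over 20695 loci, adjusted p under 0.05). Loci were kept by filterByExpr with a minimum count of 10 and a total of 15. Library totals were 15651218 to 23098347 counts, and the counting limits given cover counting error only. The script was tested on simulated counts. DESeq2 1.42.0, other scalings and filters, a fit of only the genotypes compared, a replicate block, the most-read model, organelle loci left out, paralog pairs summed and each library left out were the alternatives. Promoter windows were read from the RefSeq TAIR10.1 genome, where 27418 nuclear protein-coding genes have one.

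The 33 genes and all gene lists were chosen with earlier results of these data known, so their counts are descriptions and no list was tested. All 33 genes are described. Among the other electron transport genes the 3 called genes with the largest change in each mutant against WT are named. Root-enriched and seed genes are given to describe other tissues. Targeted genes are given beside the genotype labels, and the level of HY5 does not check the hy5 label.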

Additional observations from a re-analysis of the deposited data

How the results depend on the processing

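Over the 14 alternatives for each comparison, no called gene of the 33 changed direction and no count of called genes moved by more than 1.5 times. The number higher in agb1 than in WT was 24 to 30, the number lower in hy5 19 to 24, and the number lower in cry1 cry2 25 to 33; the lowest values come from summing the 8 paralog pairs, which leaves 25 units. Leaving out 1 library at a time gave 26 to 30, 22 to 23 and 33 to 33. The calls of 26 of 30 genes in agb1, 25 of 27 in hy5 and 33 of 33 in cry1 cry2 held under every alternative; those lost are given with their genes above. With library sizes alone the median over all tested loci shifted to 0.18 in cry1 cry2 against WT, to -0.25 in agb1 against cry1 cry2 and to -0.18 in hy5 against cry1 cry2, and the medians of the 33 genes in these comparisons were -2.03, 2.29 and 1.57. In agb1 against WT, library sizes alone gave a median of 0.25 for the 33 genes, against 0.31 in the main fit, and -0.0678 for all tested loci. Over the 14 alternatives this agb1 median of the 33 genes ran from 0.25 to 0.34. It moved by more than the spread between replicates in 8 of them. The replicate block gave the same counts, 30 higher in agb1, 23 lower and 4 higher in hy5 and 33 lower in cry1 cry2. Deviations of same-numbered libraries correlated at -0.039 to 0.06, so no effect shared by replicate number was seen. Whether same-numbered samples were grown or processed together cannot be read from these values. With 2 libraries a genotype, a fit without 1 library assumes that the lone library varies like the other genotypes.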
